A study of Mus musculus with 7 samples.

Results

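The 10 neuropeptide precursor genes *Sst*, *Npy*, *Vip*, *Cck*, *Penk*, *Pdyn*, *Tac1*, *Crh*, *Nts* and *Adcyap1* were followed through the neurons of the mouse hippocampus. They were matched by gene symbol among the 55536 genes of the count tables, and all 10 had transcripts in the nuclei. Nuclei of 24 first-round barcoding wells were sequenced by split-pool barcoding (Split-seq), and each well held hippocampal nuclei of 1 mouse. The mice were hemizygous Arctic48 animals on C57BL6/J and wild-type (WT) mice from crosses of that line with C57BL6/J. Arctic48 mice carry human APP with the Swedish, Indiana and Arctic mutations and serve as a model of Alzheimer's disease amyloid. Single-housed mice drank water (veh) or water with PMX205, a cyclic hexapeptide antagonist of the complement receptor C5aR1, at 20 µg/ml for 12 weeks by the sample labels (the study's text describes the period differently), and all were perfused at 10 months of age. This gave 4 groups of 6 wells, named WT-veh and WT-PMX for wild-type and Arc-veh and Arc-PMX for Arctic mice, with 3 females (F1 to F3) and 3 males (M1 to M3) each, and the well was the replicate. The 24 wells of microglial cells in the same run were not used here.

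Neuropeptides are made as larger precursors, cut by convertases such as Pcsk1 and Pcsk2, often amidated by Pam, and packed into dense-core vesicles. Most act on G protein-coupled receptors over longer distances and times than glutamate or GABA. In the hippocampus somatostatin, neuropeptide Y, vasoactive intestinal peptide (VIP) and cholecystokinin mark classes of GABA interneurons, while dynorphin, from *Pdyn*, is a peptide of the granule cells of the dentate gyrus.

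All 10 genes are protein coding in the GENCODE annotation of the GRCm38 build (mm10). *Sst* lies on chromosome 16 (23889573 to 23890958, minus strand) and *Npy* on chromosome 6 (49822710 to 49829507, plus strand). *Vip* lies on chromosome 10 (5639218 to 5647617, plus), *Cck* on chromosome 9 (121489824 to 121495694, minus) and *Penk* on chromosome 4 (4133531 to 4138819, minus). *Pdyn* lies on chromosome 2 (129686565 to 129699844, minus), *Tac1* on chromosome 6 (7554879 to 7565834, plus) and *Crh* on chromosome 3 (19693401 to 19695396, minus). *Nts* lies on chromosome 10 (102481756 to 102490486, minus) and *Adcyap1* on chromosome 17 (93199017 to 93206537, plus). *Penk* alone overlaps another annotated gene, A830012C17Rik, on the opposite strand.

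Several precursor genes are textbook targets of cAMP signalling through the palindromic element TGACGTCA, whose first 6 bases, TGACGT, form its shorter core. RefSeq promoter sequences (GRCm38.p6) were listed for 8 of the 10 genes, all but *Penk* and *Crh*, which could not be searched. The 250 bases before the start of each listed gene were searched on both strands. Every full element also holds the core. The full element stood before *Sst* and the core before *Sst*, *Vip* and *Adcyap1*, against 1.55% and 6.47% of 32851 promoters. The start is the RefSeq one, and for *Sst* the GENCODE gene given above begins farther upstream and takes in the match. The 30 bases around each match are given on the gene's strand, with the match in capitals. They show where *Sst* carries the full element and where *Vip* and *Adcyap1* carry only the core. A match is a description of letters and not evidence of a bound site. The windows lie at chr16:23890874-23890903 (minus strand), chr10:5639127-5639156 (plus) and chr17:93198914-93198943 (plus).
Sst: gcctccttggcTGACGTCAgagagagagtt
Vip: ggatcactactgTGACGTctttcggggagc
Adcyap1: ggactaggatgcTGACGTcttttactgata

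After filtering and removal of doublets 43884 nuclei remained, with 1148 to 3112 nuclei and 4398936 to 30031375 transcripts per well. Leiden clustering, in which the 10 genes were left out of the variable genes, gave 37 clusters. Marker genes named 8629 nuclei as dentate granule-like (*Prox1* and others), 4970 as CA1-like (*Fibcd1*), 4540 as CA3-like (*Grik4*) and 4318 as interneuron-like (*Gad1*, *Gad2*). Of the interneuron nuclei 1849 were MGE-like (*Lhx6*, *Sox6*), 782 were CGE-like (*Adarb2*, *Npas1*) and 1687 formed a cluster that fitted neither class and was led by *Ano1*, *Pld5* and *Ankfn1*. That last cluster held 1 to 231 nuclei per well, and whether all of its nuclei came from the hippocampus was not tested. It held 136 of the 139 *Nts*, 89 of the 141 *Penk* and 41 of the 56 *Pdyn* transcripts of interneurons, so this limit applies to those values. Of 40769 distinct barcodes 10.01% occurred in more than 1 of the 7 sublibraries. Neuronal *App* spanned 545.45 to 790.58 counts per 1000000 transcripts (CPM) in Arctic and 447.77 to 574.43 in WT wells, and *Xist* and Y-linked genes matched the sex label in all 24 wells. WT-veh wells F3 and M3 stood apart, with 13 and 28 oligodendrocyte nuclei against 182 to 239 in the other WT-veh wells, and with 0 and 3 microglia against 19 to 47. The fits were therefore repeated without both of them.

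The 10 genes divided among the neuronal subtypes, and transcripts were sparse throughout. In total 379 *Sst*, 353 *Npy*, 454 *Vip*, 2442 *Cck*, 436 *Penk*, 381 *Pdyn*, 165 *Tac1*, 29 *Crh*, 251 *Nts* and 184 *Adcyap1* transcripts were counted. Levels are CPM of the nuclei of one subtype in a well, and in such sums fewer nuclei with a transcript and less RNA per nucleus cannot be told apart. Because the subtypes come from clustering the same nuclei, differences between subtypes are described without a test. Gene lengths differ, so levels are compared within a gene and not between genes.

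*Vip*, the peptide of disinhibitory interneurons, was the most concentrated, with 428 of its 454 transcripts (94.27%) in CGE-like nuclei at 53.563 ± 30.203 CPM (SD, n = 24 wells). The lowest CGE-like well, at 9.853 CPM, lay above the highest well of every other neuronal subtype, at most 1.899. *Vip* was found in 138 of 782 CGE-like nuclei, 17.65% (95% Wilson interval 15.1 to 20.5), and in 2 of 4156 oligodendrocyte nuclei, 0.0481%. Median depth was 6785.5 transcripts in CGE-like and 1126 in oligodendrocyte nuclei, and a share of the second size was read as background. Intervals and limits cover counting error only.

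*Sst* (somatostatin, of dendrite-targeting interneurons) and *Npy* (neuropeptide Y) were both highest in MGE-like nuclei. MGE-like nuclei held 306 of the *Sst* transcripts (80.74%), at 14.700 ± 6.525 CPM, and 303 of the *Npy* transcripts (85.84%), at 13.749 ± 7.020 CPM. All 306 *Sst* transcripts came from the larger MGE-like cluster of 1368 nuclei, and the smaller one of 481 nuclei held 0. *Npy* lay in both, with 224 transcripts in the larger cluster (14.510 CPM) and 79 in the smaller one (19.696 CPM). *Sst* was detected in 11.68% of MGE-like nuclei (10.3 to 13.2) and *Npy* in 10.17% (8.87 to 11.6). Oligodendrocytes had *Sst* in 0 of 4156 nuclei, which allows a share of up to 0.0722%, and *Npy* in 1. A further 28 *Npy* transcripts (7.93%) lay in CGE-like nuclei, which held 3 of *Sst*.

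*Tac1*, the precursor of substance P, was highest in the same larger MGE-like cluster, at 5.700 CPM. MGE-like nuclei held 91 *Tac1* transcripts (55.15%), and the cluster of neither class held 39. *Crh* (corticotropin-releasing hormone) was the rarest, with 10 transcripts in MGE-like and 7 in CGE-like nuclei and 0 of 8629 dentate nuclei positive, a limit of 0.0348%. With under 20 transcripts in every subtype it was left out of the permutation tests described below.

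*Cck* was the one peptide gene found broadly in principal neurons. CA1-like nuclei held 896 of its transcripts (36.69%) at 14.109 ± 4.366 CPM, CA3-like nuclei 537 (21.99%) at 9.439 ± 4.185 CPM, and dentate nuclei 226 (9.25%) at 3.467 ± 2.064 CPM. The neuronal clusters outside the 4 subtypes held another 534 (21.87%) at 9.053 ± 4.659 CPM. CGE-like interneurons held only 143 transcripts but the highest mean over wells of these classes, 23.589 ± 15.304 CPM. MGE-like nuclei stood at 2.773 ± 3.028 CPM. Pooled over wells, a cluster among the other neurons stood higher, at 23.41 CPM (168 transcripts) against 20.924 in CGE-like nuclei. In the order CGE-like, CA1-like, CA3-like, dentate and MGE-like, the wells of each subtype overlapped with those of the next. Within a well the first of each pair was the higher in 19, 21, 22 and 17 of 24 wells, respectively. *Cck* was found in 14.77% of CA1-like nuclei (13.8 to 15.8) and 8.79% of CA3-like nuclei (8.0 to 9.65), and in 0 of 4156 oligodendrocytes. The CA3-like nuclei include a cluster of 2030 with a median of 708 transcripts, against 17882 and 14255 in the other CA3-like clusters, so the shares of the 2 subtypes were not compared.

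The opioid precursors differed in site. *Pdyn* lay mainly in dentate granule nuclei, with 259 of 381 transcripts (67.98%) at 4.095 ± 1.356 CPM, and 243 of 8629 nuclei positive (2.82%, 2.49 to 3.19). All 3 dentate clusters held it, at 5.205, 4.130 and 3.861 CPM. CA1-like nuclei held 4 *Pdyn* transcripts and CA3-like nuclei 3. *Penk*, the enkephalin precursor, was split between CA1-like nuclei (165 transcripts, 37.84%, 2.503 ± 1.276 CPM), interneurons (141, 32.34%) and dentate nuclei (73, 16.74%). Within dentate nuclei *Penk* stood at 3.089 CPM in one cluster and 0.613 CPM in another. Among interneurons, 89 *Penk* transcripts came from the cluster of neither class and 44 from CGE-like nuclei. Pooled over wells, these stood at 5.193 and 6.438 CPM, above the CA1-like clusters at 3.05, 2.459 and 0.119 CPM.

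*Nts* (neurotensin) and *Adcyap1* (the PACAP precursor) had few transcripts in MGE-like and CGE-like nuclei. The interneuron cluster of neither class held 136 *Nts* transcripts (54.18%), and other neuronal clusters held 99, of which 81 lay in 1 cluster. Other neuronal clusters held 125 *Adcyap1* transcripts (67.93%), and a single CA3-like cluster held the 47 transcripts (25.54%) of the CA3-like class. *Npy* and *Adcyap1* were found in 0 of 4970 CA1-like nuclei, which allows up to 0.0604%.

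**Figure D1:**
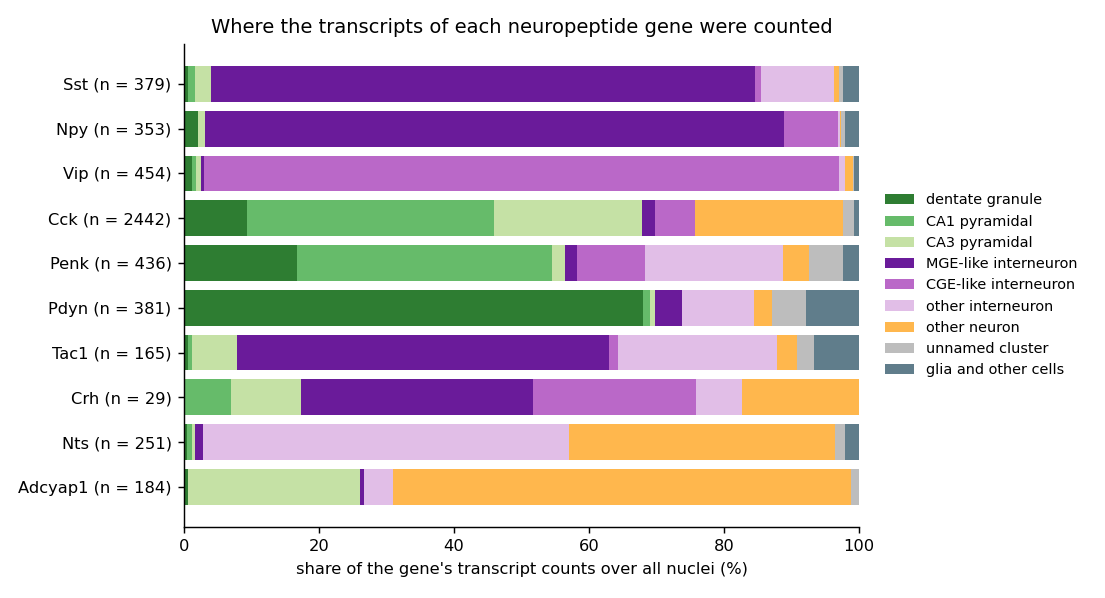
Share of the transcripts of each of the 10 neuropeptide genes over all nuclei, in percent, by neuronal subtype, other neurons, unnamed clusters, and glia and other cells. The plot shows most Vip in CGE-like nuclei, most Sst and Npy in MGE-like nuclei and most Pdyn in dentate nuclei. Cck is spread over CA1-like, CA3-like and other neuronal nuclei.

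Single interneuron nuclei mostly showed at most 1 of the 10 genes. Of 4318 interneuron nuclei 3408 had a transcript of none, 770 of 1 and 140 of 2 or more. *Sst* and *Npy* met most often, in 47 nuclei, which were 18.88% of the *Sst* nuclei and 22.27% of the *Npy* nuclei. *Vip* met *Penk* in 15 nuclei (10.64% of *Vip*, 15.15% of *Penk*) and *Cck* in 13 (9.22% and 9.92%). *Sst* met *Vip* in 1 nucleus and *Npy* met *Vip* in 0. *Pdyn* and *Tac1* shared 8 nuclei, 18.6% of the *Pdyn* nuclei and 8.08% of the *Tac1* nuclei. At this depth an undetected partner does not show that it was absent, and no test was made over nuclei.

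The genes whose levels were most like those of each peptide gene across 19 neuronal clusters were found by Pearson's r of log2(CPM + 1), over 4712 genes with at least 50 CPM in a cluster. These r values describe clusters that share wells and differ in depth, and carry no test. Each was picked as among the highest of 4712 genes over only 19 clusters. How high such values would be by chance was not tested, so the lower ones in particular carry little weight. The nearest 3 were 1110004F10Rik (0.905), Sox6 (0.897) and Gna14 (0.894) for *Sst*. *Npy* lay near to Mageb18 (0.986) and Maf (0.941). For *Tac1* they were Sox6 (0.954), Habp4 (0.807) and Gna14 (0.807), so that Sox6 and Gna14, 2 of its 3, were shared with *Sst*. Sox6 was itself a marker used to name the MGE-like class, and *Sst* and *Tac1* were both highest in the same MGE-like cluster. Any gene high in that cluster would lie near to both, so the sharing adds nothing to the naming. *Vip* lay nearest to Slc17a8 (0.919), Megf10 (0.913) and Cep170 (0.821), and *Crh* to Stk32a (0.936), Slc17a8 (0.934) and Npas1 (0.881). With 29 *Crh* transcripts in all, its r values rest on very few counts per cluster. *Pdyn* lay nearest to Ccdc85a (0.93), Mycbp2 (0.918) and Recql5 (0.905). *Cck* had Dlgap3 (0.774), 3110039M20Rik (0.753) and Acsl5 (0.745), and *Penk* had Mtch1 (0.825), Gm39185 (0.764) and Fam196b (0.708). *Nts* had Ino80 (0.803), Tcaf1 (0.759) and Zic1 (0.752). *Adcyap1* had the lowest values, AC060761.1 (0.665), Npsr1 (0.63) and Myo5c (0.62).

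To ask whether genotype or PMX205 went with peptide expression, the 4 groups were compared within each subtype by edgeR's quasi-likelihood test on summed counts, with a term for sex and p-values adjusted by Benjamini-Hochberg over all genes tested. Only 5 of the 10 genes had enough counts to pass edgeR's expression filter somewhere: *Pdyn* in dentate, *Cck* in CA1-like and CA3-like, *Sst* and *Npy* in interneuron and MGE-like, and *Vip* in interneuron and CGE-like nuclei. Over 54 fits of these 9 pairs and 6 contrasts, 0 passed an adjusted p of 0.05, the lowest adjusted p was 0.342, and 3 had an unadjusted p under 0.05, all of *Pdyn*. DESeq2 also called 0, with 2 at an unadjusted p under 0.05. In Arc-veh against WT-veh the share of all genes tested that passed was 0.289% in dentate, 0.0387% in CA1-like, 0.156% in CA3-like and 0.0% in interneuron, MGE-like and CGE-like nuclei. For both Arctic against both WT groups it was 1.61%, 0.116%, 0.371%, 0.0102%, 0.0373% and 0.0% in the same order, and for males against females 0.116%, 0.165%, 0.0782%, 0.0715%, 0.124% and 0.0893%. The shares for sex depended on Arc-PMX F1, without which 248 dentate, 220 CA1-like and 153 CA3-like genes were called in place of 12, 17 and 8. For PMX205 within Arctic or within WT mice, and for the difference of the 2 effects, it was 0.0% in every subtype with the filter. *Penk*, *Tac1*, *Crh*, *Nts* and *Adcyap1* passed the filter in no subtype. Without the filter 324 fits gave 0 calls, against 0.224% of all genes over the same subtypes and contrasts, and 27 (8.33%) at an unadjusted p under 0.05, against 4.83%. Without both glia-poor WT-veh wells *Cck* also passed the filter in dentate and interneuron nuclei, and 66 fits gave 0 calls, a lowest adjusted p of 0.256 and 5 at an unadjusted p under 0.05. Among these 5 were *Cck* in interneurons for males against females (log2 fold change -1.18, edgeR adjusted p 0.256) and *Cck* in dentate nuclei for both Arctic against both WT groups (-0.74, edgeR adjusted p 0.368).

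*Pdyn* in dentate granule nuclei was lowest in Arc-veh mice, without passing the adjusted threshold. WT-veh wells spanned 3.925 to 5.417 CPM with a median of 4.235, and WT-PMX wells 3.345 to 6.077 with a median of 5.237. The 6 Arc-veh wells stood at 2.015 (F1), 5.525 (F2), 3.306 (F3), 2.832 (M1), 1.617 (M2) and 0.654 (M3). Arc-PMX wells spanned 3.235 to 5.766 with a median of 4.279. Thus 5 of 6 Arc-veh wells lay below every WT-veh well and F2 lay above them all, and M3 rested on 1 transcript. The means were 4.403 ± 0.535, 4.994 ± 1.01, 2.658 ± 1.684 and 4.322 ± 0.831 CPM (SD, n = 6) for WT-veh and WT-PMX, then Arc-veh and Arc-PMX, from 71, 87, 41 and 60 transcripts.

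For *Pdyn* the log2 fold change of Arc-veh against WT-veh was -0.72 (SE 0.29, 95% interval -1.31 to -0.12), a fold of 0.608, with an edgeR adjusted p of 0.415. For Arc-PMX against Arc-veh it was 0.66 (SE 0.30, 0.05 to 1.27), a fold of 1.58, with an edgeR adjusted p of 1. Both contrasts share the Arc-veh wells. At an unadjusted p under 0.05 stood 9.43% and 2.05% of all dentate genes in these contrasts, 11.2% for both Arctic against both WT groups, 3.49% for WT-PMX against WT-veh, 2.79% for the difference of effects and 14.8% for males against females. WT-PMX against WT-veh gave 0.16 (SE 0.26), and the difference between the PMX205 effects in Arctic and WT mice was 0.50 (SE 0.40), within the spread between wells. Both Arctic against both WT groups gave -0.47 (SE 0.20, edgeR adjusted p 0.342). Leaving out Arc-veh F2 moved the first change to -1.05 and the second to 0.99. Without both glia-poor wells the first change was -0.73 (SE 0.32, edgeR adjusted p 0.574). In the same dentate sums the 5 astrocyte markers together stood at 191.8 to 242.6 CPM in WT-veh, 192.2 to 248.9 in WT-PMX, 150.1 to 199.8 in Arc-veh and 175.1 to 225.3 in Arc-PMX wells, all 5 markers being detected, and their part in the result was not tested.

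*Cck* in CA1-like nuclei, the best counted pair, did not separate the groups. WT-veh wells spanned 10.7 to 21.0 CPM (median 12.9), WT-PMX 6.89 to 21.9 (14.8), Arc-veh 6.37 to 16.6 (14.0) and Arc-PMX 8.68 to 21.6 (14.7). All 4 groups overlapped almost entirely. Arc-veh against WT-veh gave a log2 fold change of -0.10 (SE 0.24, 95% interval -0.59 to 0.39, edgeR adjusted p 0.974) and Arc-PMX against Arc-veh 0.22 (SE 0.24, -0.28 to 0.71, edgeR adjusted p 1). With 204 to 244 transcripts per group, changes of any size within these intervals remain compatible with the counts.

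*Cck* in CA3-like nuclei spread more widely. WT-veh wells spanned 6.21 to 14.1 CPM (median 7.46), WT-PMX 5.99 to 15.4 (9.21), Arc-veh 2.65 to 19.1 (8.09) and Arc-PMX 4.61 to 14.4 (9.28). The Arc-veh wells held both the lowest and the highest value of the 24. Arc-veh against WT-veh gave -0.03 (SE 0.32, 95% interval -0.68 to 0.62). In dentate nuclei, where *Cck* did not pass the filter, the group means were 3.181 ± 1.360, 5.131 ± 2.331, 3.277 ± 2.125 and 2.279 ± 1.625 CPM for WT-veh and WT-PMX, then Arc-veh and Arc-PMX, with overlapping wells. In CGE-like nuclei they were 22.7 ± 8.48, 28.8 ± 19.7, 16.950 ± 6.847 and 25.8 ± 21.9 CPM, from 25 to 46 transcripts per group.

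*Sst* and *Npy* in MGE-like nuclei also overlapped across all groups. *Sst* wells spanned 4.53 to 19.0 CPM (median 13.2) in WT-veh, 8.845 to 27.5 (19.5) in WT-PMX, 10.9 to 21.2 (14.9) in Arc-veh and 1.54 to 22.2 (15.7) in Arc-PMX. The log2 fold change of *Sst* was 0.20 (SE 0.35, 95% interval -0.52 to 0.91, edgeR adjusted p 0.989) for Arc-veh against WT-veh, 0.45 (SE 0.35) for WT-PMX against WT-veh and 0.01 (SE 0.33) for Arc-PMX against Arc-veh. The well with the lowest *Sst* was an Arc-PMX well. *Npy* wells spanned 2.47 to 23.5 CPM (15.9) in WT-veh, 5.32 to 24.3 (15.3) in WT-PMX, 4.975 to 18.7 (14.5) in Arc-veh and 6.05 to 31.0 (10.9) in Arc-PMX. *Npy* gave -0.17 (SE 0.37, -0.91 to 0.57) for Arc-veh against WT-veh and 0.11 (SE 0.37) for Arc-PMX against Arc-veh. The wells of no group lay clear of those of another.

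*Vip* in CGE-like nuclei varied widely within groups, with 19 to 66 such nuclei per well. WT-veh wells spanned 22.1 to 70.9 CPM (median 54.6), WT-PMX 17.9 to 114.138 (63.8), Arc-veh 21.6 to 96.7 (47.7) and Arc-PMX 9.85 to 131.999 (30.1). The highest and the lowest well were both Arc-PMX. The log2 fold change was 0.08 (SE 0.40, 95% interval -0.74 to 0.90) for Arc-veh against WT-veh and -0.09 (SE 0.40, -0.91 to 0.73) for Arc-PMX against Arc-veh, so a 1.5-fold change in either direction lay within the intervals.

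**Figure D2:**
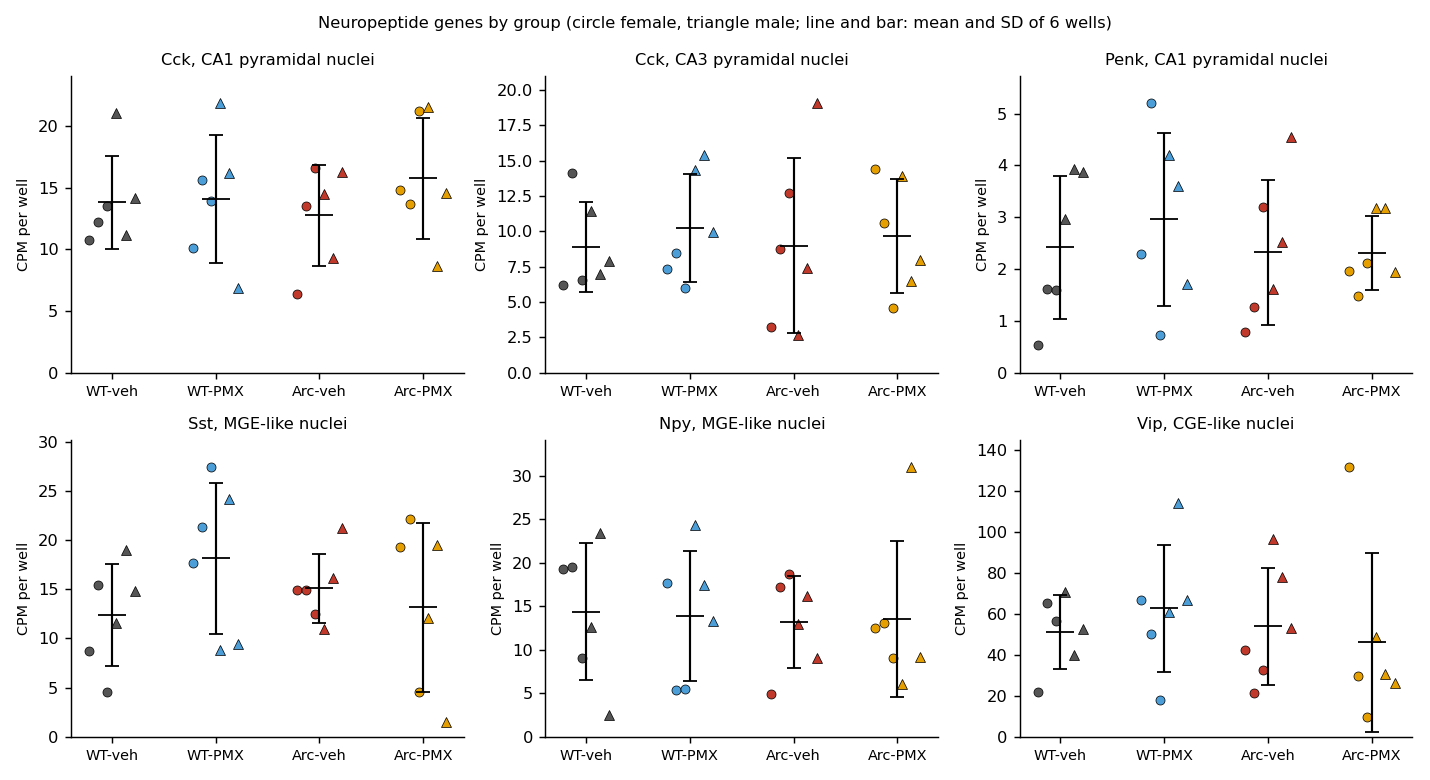
CPM of Cck in CA1-like and CA3-like, Penk in CA1-like, Sst and Npy in MGE-like and Vip in CGE-like nuclei, 1 point per well (circle female, triangle male) in 4 groups of 6, with lines and bars for mean and SD. The wells of all groups overlap in every panel.

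To include genes too sparse for the filter, levels were also compared by a two-sided exact permutation test of the difference in mean CPM over wells, a test chosen after the data had been seen. It was run on all 23 gene and subtype pairs with at least 20 transcripts, of 9 genes and filtered or not, in 3 contrasts. Of 69 tests 2 had a p under 0.05, none did after adjustment (lowest adjusted p 0.985), and no pair of groups was free of overlap. The smallest p this design allows is 0.0022, so over 69 tests no single pair could pass after adjustment, however far apart its groups. The lower of the 2 was *Penk* in interneurons, where WT-PMX wells spanned 1.001 to 4.83 CPM (median 3.25) against 0 to 3.46 (0.886) in WT-veh (41 and 19 transcripts, exact permutation p 0.0411, adjusted 0.985). The other was *Pdyn* in dentate nuclei, Arc-veh against WT-veh (exact permutation p 0.0455, adjusted 0.985). Over all groups 89 of the 141 *Penk* transcripts of interneurons came from the cluster of neither class. That cluster held 1 to 231 nuclei per well, and its part in the *Penk* result was not tested. *Penk* in CA1-like nuclei had group means of 2.417 ± 1.384, 2.961 ± 1.669, 2.325 ± 1.394 and 2.309 ± 0.707 CPM in WT-veh and WT-PMX, then Arc-veh and Arc-PMX.

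Several sparse values rested on 1 well or on 1 cluster. *Pdyn* in interneurons had 5, 8, 23 and 20 transcripts in WT-veh and WT-PMX, then Arc-veh and Arc-PMX, and 17 of the 23 came from Arc-veh M1. *Nts* in interneurons had 42, 36, 12 and 49, and was at 0 in 4, 2, 3 and 0 of 6 wells. Its cluster held 1 to 231 nuclei per well, and the part of that in the result was not tested. Unfiltered, edgeR gave *Nts* a log2 fold change of 1.81 (SE 0.52, edgeR adjusted p 0.0547) for Arc-PMX against Arc-veh, in a fit that called 233 of 27644 genes. *Tac1* in MGE-like nuclei had 18, 37, 21 and 15 transcripts, and 18 of the 37 came from WT-PMX M1. *Adcyap1* in CA3-like nuclei had 11, 16, 14 and 6.

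**Figure D3:**
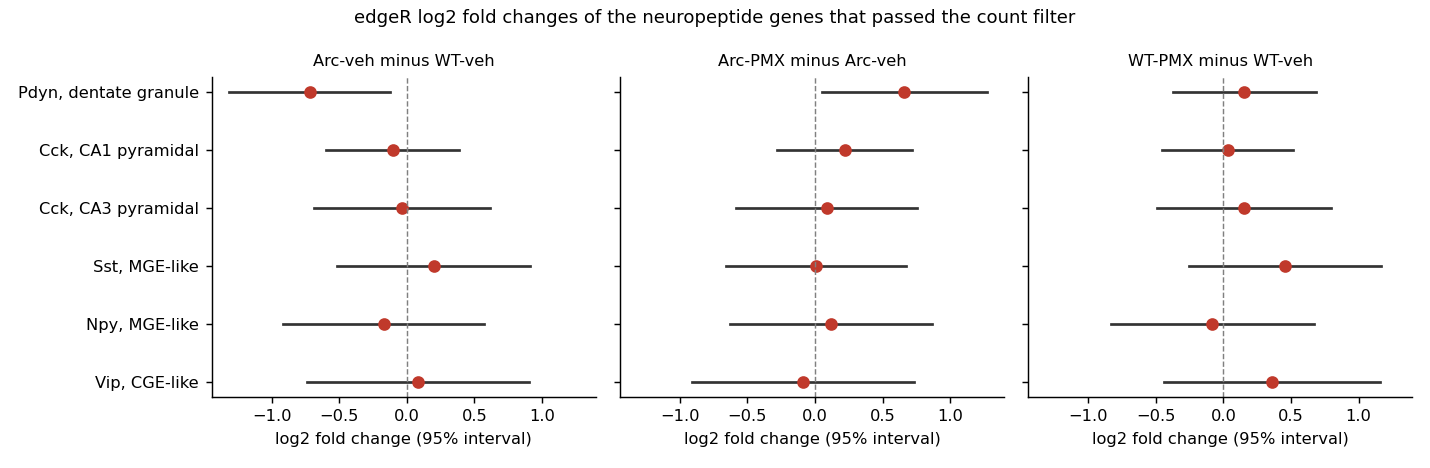
Log2 fold change with 95% interval (edgeR) of 6 gene and subtype pairs in 3 contrasts: Arc-veh against WT-veh, Arc-PMX against Arc-veh and WT-PMX against WT-veh. Only Pdyn in dentate nuclei has intervals clear of 0, at -0.72 and 0.66 in the first 2 contrasts, and neither passed the adjusted threshold.

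The makeup of the interneuron class differed between wells, and its part in the peptide levels of the whole class was not tested. MGE-like nuclei were 52.83 ± 21.1% of interneurons in WT-veh, 52.78 ± 14.05% in Arc-veh and 37.04 ± 12.96% in Arc-PMX wells (SD, n = 6). The difference of -15.75 percentage points between Arc-PMX and Arc-veh had an exact permutation p of 0.0649 (adjusted 0.374 over 14 tests), and with nuclei named one by one it was -8.15 points (exact permutation p 0.0498, adjusted 0.199 over 4 tests). The cluster of neither class took 25.36 ± 22.99% in Arc-veh and 46.5 ± 13.74% in Arc-PMX wells (exact permutation p 0.0801, adjusted 0.374). WT-PMX wells, outside these tests, had a median of 44.5% MGE-like (29.35 to 74.11) and 33.67% of neither class (0.89 to 52.72). The medians in WT-veh, Arc-veh and Arc-PMX wells were 58.12%, 54.61% and 34.54% MGE-like, and 17.44%, 20.43% and 48.52% of neither class. In the whole class the log2 fold changes of *Sst*, *Vip* and *Npy* for Arc-PMX against Arc-veh were -0.31, -0.60 and -0.34 (edgeR adjusted p 0.929, 0.897 and 0.923), against 0.01, -0.09 and 0.11 within the MGE-like or CGE-like class. With nuclei named one by one by their markers the 3 genes gave -0.17, -0.77 and -0.43 in the whole class against -0.26, -0.51 and -0.57 within those classes. Dentate nuclei made up 27.33 ± 6.18% of neurons in Arc-veh and 34.78 ± 4.79% in WT-veh wells (exact permutation p 0.039, adjusted 0.374).

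**Figure D4:**
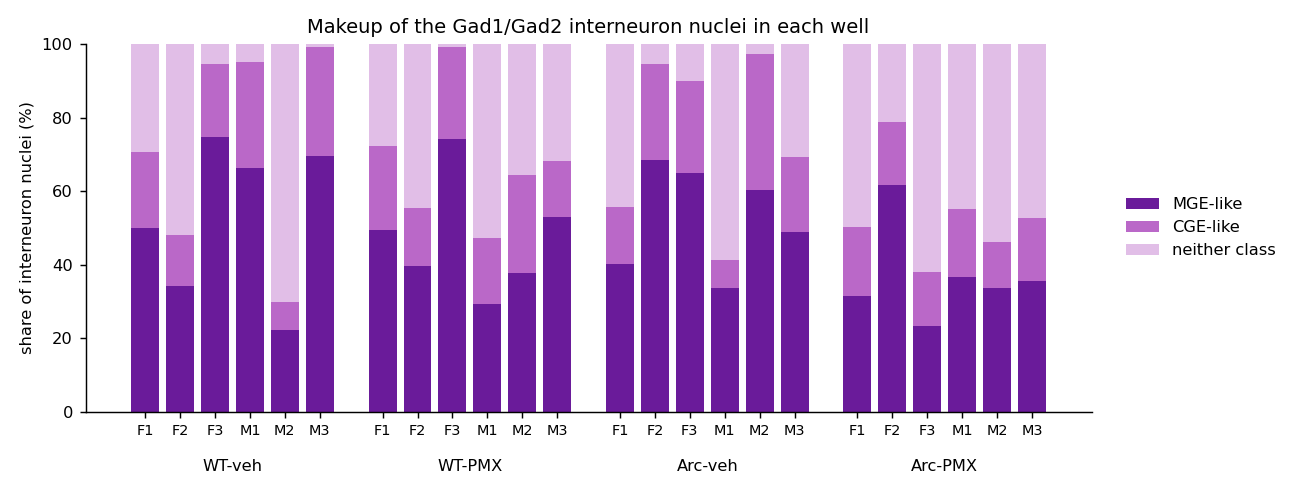
Share of the interneuron nuclei of each of 24 wells that were MGE-like, CGE-like or of neither class, in percent. The share of neither class varies widely between wells of a group, from 2.74% to 58.75% in Arc-veh.

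Around the 10 genes, the machinery that makes and receives peptides was compared with the same fits. In dentate nuclei, 2 of 14 tested genes for peptide processing and dense-core vesicles fell in both Arctic against both WT groups and none rose, against 1.61% of all genes called. *Pam*, which amidates peptides, and *Pcsk2*, a convertase of prohormones, were the 2. The list median was -0.092 on the log2 scale against 0.0004 for all genes, with 10 of 14 below 0. In CA1-like, CA3-like and interneuron nuclei 15, 15 and 16 of the 16 list genes were tested and none was called.

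*Pam* in dentate nuclei spanned 192 to 254.538 CPM (median 224) in WT-veh, 198 to 280 (251) in WT-PMX, 149 to 224 (183) in Arc-veh and 127 to 219 (192) in Arc-PMX wells. The Arctic wells were lower but overlapped with the WT wells. *Pam* fell by 0.36 on the log2 scale (SE 0.08, edgeR adjusted p 0.00882), with -0.32 for Arc-veh against WT-veh alone (adjusted p 0.292). *Pcsk2* spanned 586 to 660 CPM (616) in WT-veh, 608 to 685 (624) in WT-PMX, 454 to 608 (551) in Arc-veh and 457 to 606.597 (519) in Arc-PMX. It fell by 0.23 (SE 0.06, edgeR adjusted p 0.0283), but the call was lost when any 1 of 8 wells was left out (WT-veh M1 or M2, WT-PMX F1, Arc-veh F2 or F3, Arc-PMX F2, M1 or M3), with an edgeR adjusted p up to 0.0665. With 1 well left out the change of *Pcsk2* spanned -0.2571 to -0.1973. The call was also lost without both glia-poor wells (-0.2263, edgeR adjusted p 0.0663). In CA1-like nuclei *Pam* stood at -0.10 and *Pcsk2* at -0.04 in the same contrast, without a call, and the difference between subtypes was not tested.

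On a list of 14 other peptide precursors and *Crhbp*, a binding protein of CRH, only *Grp* (gastrin-releasing peptide) and *Nucb2* (nesfatin precursor) had enough counts in dentate nuclei, and *Grp* fell. *Grp* wells spanned 2.321 to 7.221 CPM (median 5.721) in WT-veh, 3.755 to 8.568 (6.584) in WT-PMX, 0.708 to 4.58 (2.516) in Arc-veh and 0.868 to 2.344 (1.175) in Arc-PMX. Every Arc-PMX well lay below every WT-PMX well, but the share of all dentate genes that do so was not counted. The Arc-veh wells overlapped with both WT groups. *Grp* counts per well were small, at 6 to 28 transcripts in WT-veh, 12 to 24 in WT-PMX, 1 to 13 in Arc-veh and 1 to 11 in Arc-PMX. *Grp* fell by 1.34 on the log2 scale in both Arctic against both WT groups (SE 0.23, 95% interval -1.82 to -0.87, edgeR adjusted p 0.000736), a fold of 0.394. Arc-veh against WT-veh alone gave -0.81 (SE 0.31, edgeR adjusted p 0.373), and Arc-PMX against Arc-veh -0.82 (SE 0.39, edgeR adjusted p 1). The call held without any single well and without both glia-poor wells (-1.29, edgeR adjusted p 0.00282). In CA1-like nuclei *Grp* gave 0.16 (edgeR adjusted p 0.94). The astrocyte marker levels given beside *Pdyn* apply to these dentate sums too.

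**Figure D5:**
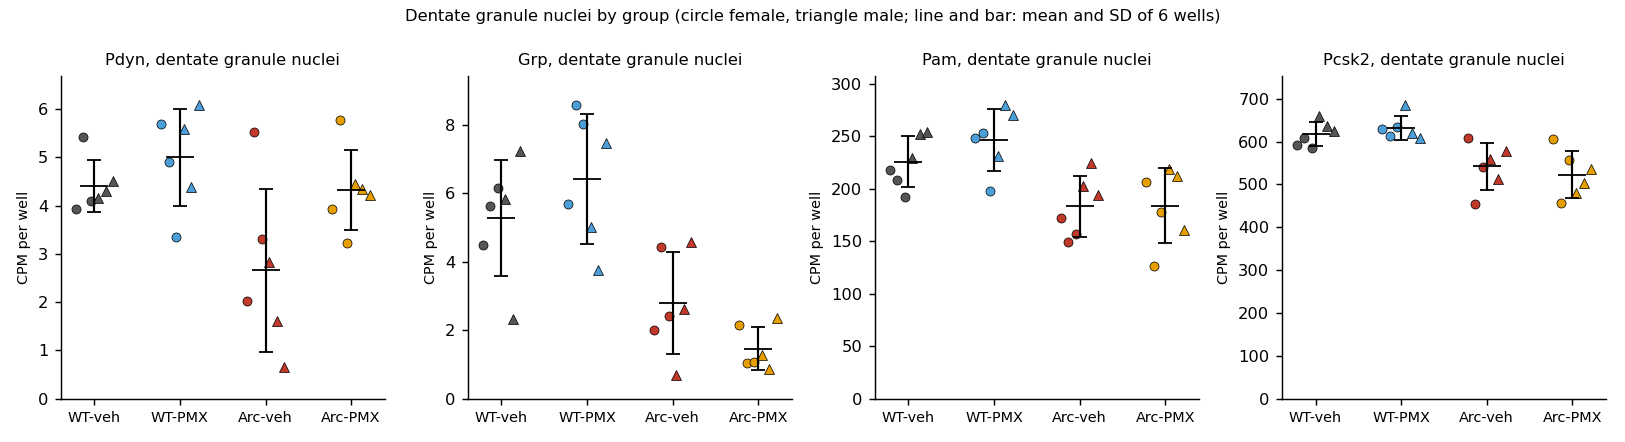
CPM of Pdyn, Grp, Pam and Pcsk2 in dentate granule nuclei, 1 point per well (circle female, triangle male) in 4 groups of 6, with lines and bars for mean and SD. Grp, Pam and Pcsk2 are lower in both Arctic groups, while Pdyn has its lowest mean, 2.658, in Arc-veh and stands at 4.322 in Arc-PMX.

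The receptors for the 10 peptides were present in a pattern of their own. *Npy1r*, a neuropeptide Y receptor, stood at 22.82 CPM in dentate and 21.95 in CGE-like nuclei against 1.49 in MGE-like nuclei, and *Npy2r* at 16.19 CPM in CA3-like nuclei. The opioid receptors *Oprd1* and *Oprm1* stood at 95.74 and 84.07 CPM in MGE-like and 40.82 and 73.01 in CGE-like nuclei, against 12.03 and 6.63 in dentate nuclei. *Tacr1*, the substance P receptor, stood at 32.55 CPM in MGE-like nuclei and 1.75 in dentate nuclei, and *Adcyap1r1*, the PACAP receptor, at 132.45 in dentate, 102.86 in CGE-like, 91.68 in MGE-like and 6.38 in CA3-like nuclei. These pooled levels carry no test. Of 22 receptor genes 9 were tested in dentate, 11 in CA1-like, 8 in CA3-like and 6 in interneuron nuclei, and none was called in any contrast. In CA1-like nuclei 10 of 11 stood above 0 in both Arctic against both WT groups, with a list median of 0.162 on the log2 scale against 0.0051 for all genes and 0 at an unadjusted p under 0.05.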

How the data were processed

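The authors deposited raw counts of transcripts, by barcode and gene, of 7 sublibraries from a Parse Split-seq run, made with the split-pipe pipeline on mm10 (bcl2fastq is named in the submitters' processing notes) and not filtered for cells. Counts of a nucleus well were summed over the sublibraries, since all of them hold the same 48 wells. The reporting summary says that a wild-type sample was left out for its genotype without identifying the well, and all 24 were used here. The 10 genes, the gene lists and the comparisons were chosen with earlier results of these data known.

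Nuclei had more than 300 and fewer than 50000 transcripts, over 400 genes and under 1% mitochondrial transcripts. Scrublet in scanpy 1.11.5 (expected rate 0.06) removed 1254 doublets at a score above 0.25. Leiden clusters (leidenalg 0.10.2, resolution 1.5, seed 1) used 2000 variable genes without the 10 members, 30 principal components and 15 neighbours. A cluster was named if its marker score was at least 0.4, at least 3 markers were in 10% of its nuclei, no second type reached 0.8 of the score and its top 10 genes held fewer than 2 markers of another type. These limits were chosen with the clusters in view.

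Counts summed per well and subtype (at least 10 nuclei) were compared with edgeR 4.0.16 (R 4.3.3; TMM, filterByExpr, glmQLFit and glmQLFTest), with 4 groups in one fit and sex as covariate, and called at a Benjamini-Hochberg adjusted p under 0.05 over all genes of a subtype and contrast. The fit was tested on simulated data. CPM is a count per 1000000 transcripts of the nuclei summed. Shares and sparse genes were compared by two-sided exact permutation (scipy 1.17.1). Depth was 1148 to 3112 nuclei per well, and median transcripts per nucleus were 5982 in dentate, 11020.5 in CA1-like, 8505 in CA3-like and 8135 in interneuron nuclei. P-values measure the spread between mice.

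Named were all 10 members, for each the 3 genes most like it across neuronal clusters (1 of them is not reported here), each gene of the lists past the adjusted threshold (at most 4 per subtype and contrast), and *App*, *Xist* and the Y-linked genes as checks of labels. Receptors described by level were chosen after their values were seen. The lists were neuropeptide receptors (22 genes), peptide processing and dense-core vesicles (16), other precursors with *Crhbp* (15) and activity-regulated genes (11). Alternatives were relative log expression, DESeq2 1.42.0, no filter, no sex covariate, 2 groups only, the replicate number as a block, doublets kept, a stricter filter (1000 transcripts, 500 genes), members kept among the clustering genes, nuclei named one by one, and, in the 4 subtypes, each well left out. Exact permutation and leaving out both glia-poor wells were chosen after seeing the data.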

Additional observations from a re-analysis of the deposited data

Results flagged for a closer look

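Of 92 groups of 6 wells, 12 held a well far from the others by Dixon's criterion, and all 12 were high. Chance gives about 1 in 20 for normally spread values, and these are small counts in classes that share wells, so their number was not read against that rate. Among dentate and CA1-like nuclei, *Cck* stood at 5.818 CPM in WT-veh F2 (next well 3.364) and at 21.047 in WT-veh M1 (next 14.168). Among interneurons as a class, *Vip* stood at 26.702 CPM in Arc-veh M2 (next 10.081), *Penk* at 6.11 in Arc-veh M1 (next 2.596) and *Tac1* at 10.311 in the same well (next 3.709). In MGE-like nuclei, *Npy* stood at 31.029 CPM in Arc-PMX M2 (next 13.097), *Cck* at 13.612 in Arc-PMX F3 from 3 transcripts, and *Tac1* at 12.285 in Arc-PMX M3 from 8. In CGE-like nuclei, *Npy* stood at 19.987 CPM in WT-veh M2 from 5 transcripts and at 5.929 in WT-PMX M2 from 4, the other 5 wells of that group being at 0. In Arc-PMX F1, CGE-like nuclei had the highest *Vip*, 131.999 CPM (next 48.602), and the highest *Cck*, 67.404 (next 28.351).

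*Pdyn* also appeared outside the neurons compared. Astrocyte nuclei of the Arc-PMX wells held 19 *Pdyn* transcripts, present in 6 of 6 wells, against 7 in 4 Arc-veh wells, 2 in 2 WT-veh wells and 2 in 2 WT-PMX wells. The levels were 5.545 ± 2.62, 2.296 ± 1.875, 1.011 ± 1.61 and 0.505 ± 0.876 CPM in that order (SD, n = 6). They were chosen for their values and are given without a test. Of the 30 transcripts 28 lay in a pair of *Gfap*-high clusters, and 1 of these held 18 nuclei of WT-veh and 36 of WT-PMX wells against 621 of Arc-veh and 590 of Arc-PMX wells. The largest astrocyte cluster, of 3497 nuclei, held the other 2. Pooled over wells, the *Gfap*-high clusters stood at 3.8 and 8.151 CPM of *Pdyn*, from 17 and 11 transcripts, against 5.205, 4.130 and 3.861 in the dentate clusters. Oligodendrocyte precursor nuclei held 11 *Tac1* transcripts, at 3.252 CPM.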

How the results depend on the processing

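Members stayed uncalled under every alternative fitted: of 563 values under other settings 540 kept their direction and 23 reversed, and of 864 with 1 well left out (dentate, CA1-like, CA3-like and interneuron nuclei) 802 kept it. Under the other settings the reversed values lay between -0.5742 and 0.2305, the farthest from 0 with nuclei named one by one. With nuclei named one by one, *Cck* in CA1-like nuclei turned to 0.0476 (Arc-veh against WT-veh) and 0.0975 (both Arctic against both WT), *Sst* in interneurons to 0.05 and *Npy* there to -0.0044 (both Arctic), *Sst* in MGE-like nuclei to 0.1929 (both Arctic) and -0.2647 (Arc-PMX against Arc-veh), and *Npy* there to 0.2305, -0.5742 and -0.509 (Arc-veh, Arc-PMX, difference of the PMX205 effects). This naming also moved *Nts* and *Adcyap1* in CA1-like nuclei to 0.764 and 0.832 CPM and *Pdyn* in CA3-like nuclei to 0.414, and the Arc-veh differences of the MGE-like and CGE-like shares to 1.26 and -0.39 points. *Cck* in CA1-like nuclei turned to -0.0012 with members among the clustering genes (WT-PMX), and, for both Arctic groups, to 0.0076 with DESeq2 and 0.0123 with doublets kept. *Sst* in MGE-like nuclei for Arc-PMX turned to -0.0321 with DESeq2, -0.0001 with 2 groups, -0.0315 with doublets kept and -0.196 as the log2 ratio of mean CPM behind the permutation test. *Cck* in CA3-like nuclei for Arc-veh turned to 0.015 by that ratio. Without both glia-poor wells, *Cck* in CA3-like nuclei turned to 0.0262 (difference of effects) and *Npy* in interneurons to -0.0156 (Arc-veh) and -0.0295 (both Arctic). The causes were not tested.

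With the replicate number as a block no member was called and *Pdyn* in dentate nuclei kept its direction (-0.66 for Arc-veh). *Cck* turned to 0.0057 in CA1-like (both Arctic) and 0.0093 in CA3-like nuclei (Arc-veh), and *Sst* in MGE-like nuclei to -0.0656. The numbers did not pair wells: 4 to 8 of 36 same-numbered pairs correlated above 0.1, and 1 to 3 of 24 wells correlated best with their own number.

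With 1 well left out, the ranges that crossed 0 were, for *Cck* in CA1-like nuclei, -0.2210 to 0.0627 (Arc-veh), -0.1262 to 0.2103 (WT-PMX) and -0.0768 to 0.0692 (both Arctic). For *Cck* in CA3-like nuclei they were -0.2887 to 0.2544, -0.1117 to 0.3442 (Arc-PMX), -0.0193 to 0.4232, -0.2030 to 0.0834 and -0.3421 to 0.1713 (difference). For *Vip* in interneurons they were -0.3418 to 0.6143, -1.3178 to 0.0130 and -0.0075 to 0.6646, for *Npy* there -0.0915 to 0.2544, -0.1983 to 0.1080, -0.5903 to 0.0528 and -0.0578 to 0.2456 (sex), and for *Sst* there -0.1427 to 0.0672. *Pdyn* in dentate nuclei spanned -1.05 to -0.53 for Arc-veh and 0.47 to 0.99 for Arc-PMX. It did not pass the expression filter with 2 groups only or with nuclei named one by one.

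*Grp* and *Pam* kept their calls under all alternatives, and *Pcsk2* lost its call as given in the report. All genes called in dentate nuclei for both Arctic groups numbered 138 to 266 over the alternatives (167 as reported), and for Arc-veh 22 to 107 (30), both highest without the filter. With 1 well left out the latter spanned 12 to 37, lowest without WT-veh F2. In CA1-like nuclei the count for Arc-veh fell from 4 to 0 and in CA3-like nuclei from 16 to 9 without both glia-poor wells, and with 1 well left out they spanned 0 to 5 (lowest without WT-veh F3, WT-veh M3 or Arc-veh F3) and 10 to 23 (lowest without WT-veh M3 or Arc-veh M1). For both Arctic groups the count in CA1-like nuclei (12) was 3 with nuclei named one by one, 6 without the sex covariate, 8 without both glia-poor wells and 24 with DESeq2, and 5 to 15 with 1 well left out (lowest without Arc-veh M2), and in MGE-like nuclei it fell from 3 to 1 with nuclei named one by one or without both glia-poor wells. Without the expression filter the count for Arc-PMX against Arc-veh went from 0 to 233 in interneurons and to 7 to 20 in the other subtypes. In CA1-like and CA3-like nuclei the unfiltered counts were 36 and 116 for Arc-veh and 58 and 118 for both Arctic groups. DESeq2 called 7 CA1-like genes for Arc-veh. For males against females DESeq2 called 111 dentate, 139 CA1-like and 102 CA3-like genes against 12, 17 and 8. *Crh* had under 20 transcripts in every subtype, and 5 of 10 members, *Crh* among them, passed the filter in no subtype.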

Other observations

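Activity-regulated genes were a list of 11, since some precursor genes are known to follow neuronal activity. None was called in any subtype or contrast. In interneurons 6 were tested (*Arc*, *Calb1*, *Egr1*, *Homer1*, *Npas4* and *Nr4a1*), with a list median of -0.670 on the log2 scale for Arc-veh against WT-veh and 0.674 for Arc-PMX against Arc-veh, against -0.0062 and -0.0044 for all genes. These contrasts share the Arc-veh wells. *Arc* stood at 5.62 CPM in the whole class against 0.82 in MGE-like and 0.29 in CGE-like nuclei, and *Npas4* at 6.49 against 1.85 and 3.66. The cluster of neither class was on average 27.16% of interneurons in WT-veh, 25.36% in Arc-veh and 46.5% in Arc-PMX wells. In WT-PMX wells its median share was 33.67%. The part of this cluster in the list medians was not tested. In dentate nuclei 4 were tested, with a median of -0.155 for Arc-veh against WT-veh. In CA1-like nuclei 9 were tested, with a median of -0.188 for both Arctic against both WT groups.

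*Pnoc* (nociceptin precursor) and *Crhbp* (CRH-binding protein), with *Nucb2* the genes of the list of other precursors tested in interneurons, stood at 17.53 and 30.64 CPM in MGE-like nuclei and were not called in any contrast. *Tac2* stood at 8.19 CPM in CGE-like and 0.0 in MGE-like nuclei.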
